A study of Mus musculus with 24 samples.

Results

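A set of 8 genes that mark macrophages and monocytes were followed in epididymal white adipose tissue (eWAT) of mice: Adgre1, Cd68, Csf1r, Lyz2, Cd14, Mpeg1, Fcgr1 and Ly6c2. They were taken by name, as 8 of the 16730 genes in the count table, and all 8 were among the 15024 genes tested. The tissue came from 24 adult male mice, 6 in each of 4 groups. All mice were littermates that carried the floxed Lama4 allele (Lama4 fl/fl), and the Lama4 AKO mice carried adiponectin-Cre in addition, which acts in adipocytes and not in macrophages. Mice of each genotype were fed breeder chow (5015) or a high-fat diet (HFD, 45% fat) for 20 weeks. The groups are chow-fed Lama4 fl/fl (libraries rdWT1 to rdWT6), chow-fed Lama4 AKO (rdKO1 to rdKO6), HFD-fed Lama4 fl/fl (hfdWT1 to hfdWT6) and HFD-fed Lama4 AKO (hfdKO1 to hfdKO6). The comparisons ask how diet, the loss of adipocyte laminin alpha 4 and the combination of both related to the myeloid genes of the tissue.

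Macrophages are the main immune cells of adipose tissue. Some are long-lived residents, others derive from circulating monocytes that enter the tissue in obesity, where they gather around dying adipocytes. The growth factor CSF1 keeps them alive through its receptor, the product of Csf1r, and the transcription factor PU.1 (Spi1) drives much of the program that defines the lineage. Adgre1 encodes F4/80, a surface receptor used to stain mouse macrophages, Cd68 a glycoprotein of the lysosome and endosome, and Mpeg1 perforin-2, a pore-forming protein of phagocytes. Lyz2 encodes lysozyme, an enzyme that cuts bacterial cell walls. Cd14 is a co-receptor that hands lipopolysaccharide to TLR4, and Fcgr1 encodes the high-affinity receptor for IgG. Ly6c2 encodes part of the Ly6C surface antigen of classical monocytes. In a whole-tissue sample, fewer macrophages and less RNA per macrophage cannot be told apart.

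The sequences before 4 members are shown, picked by how the members moved together across mice, as described below. They are Cd68, Mpeg1 and Fcgr1, which followed Adgre1 closely, and Ly6c2, which followed the other members least. A part of these sequences in that pattern was not tested. RefSeq promoters (GRCm38.p6, 250 bases before to 50 after the gene's start) were matched for 5 of the 8 members. Capitals mark GAGGAA, or TTCCTC where it lies on the other strand, the core letters of the motif that PU.1 binds.
Cd68, chr11:69666121-69666420, minus strand: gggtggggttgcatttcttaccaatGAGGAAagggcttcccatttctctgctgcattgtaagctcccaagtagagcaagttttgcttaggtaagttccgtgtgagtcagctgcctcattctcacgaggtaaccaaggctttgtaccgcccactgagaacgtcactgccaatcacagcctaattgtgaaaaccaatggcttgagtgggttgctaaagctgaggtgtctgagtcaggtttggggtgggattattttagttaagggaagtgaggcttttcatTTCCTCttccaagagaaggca
Mpeg1, chr19:12460520-12460819, plus strand: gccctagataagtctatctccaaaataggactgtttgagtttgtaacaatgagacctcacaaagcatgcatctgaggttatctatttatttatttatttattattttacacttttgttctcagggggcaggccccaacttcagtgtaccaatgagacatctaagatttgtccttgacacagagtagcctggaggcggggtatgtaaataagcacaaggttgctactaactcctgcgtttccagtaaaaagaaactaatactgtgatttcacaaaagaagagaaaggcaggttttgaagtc
Fcgr1, chr3:96293920-96294219, minus strand: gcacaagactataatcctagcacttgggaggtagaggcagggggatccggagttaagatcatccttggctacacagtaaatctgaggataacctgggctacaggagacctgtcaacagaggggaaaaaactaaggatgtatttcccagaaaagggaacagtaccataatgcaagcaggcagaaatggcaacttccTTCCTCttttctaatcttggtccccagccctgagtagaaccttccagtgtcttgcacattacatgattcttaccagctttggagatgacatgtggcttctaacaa
Ly6c2, chr15:75111922-75112221, minus strand: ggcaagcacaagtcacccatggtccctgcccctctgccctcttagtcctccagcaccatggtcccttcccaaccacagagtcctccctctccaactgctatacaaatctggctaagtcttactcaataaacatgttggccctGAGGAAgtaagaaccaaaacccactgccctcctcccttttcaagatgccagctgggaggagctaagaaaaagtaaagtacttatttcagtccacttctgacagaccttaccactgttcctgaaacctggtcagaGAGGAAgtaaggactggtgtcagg
GAGGAA occurred on either strand in 3 of the 5 member promoters (Cd68, Fcgr1 and Ly6c2) and in 28.3% of all 32851 promoters of this length. Ly6c2 has a second listed start in the same stretch. The letters were not found in the Mpeg1 and Lyz2 windows. A match is a description of letters and not a binding site.

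On GRCm38 coordinates from the deposited annotation, Adgre1 lies on chromosome 17 (57358691 to 57483527, plus strand), Cd68 on chromosome 11 (69664213 to 69666153, minus) and Mpeg1 on chromosome 19 (12460779 to 12465283, plus). Lyz2 lies on chromosome 10 (117277331 to 117282321, minus), Fcgr1 on chromosome 3 (96282909 to 96293969, minus) and Ly6c2 on chromosome 15 (75108158 to 75111970, minus). Csf1r (61100598 to 61132149, plus) and Cd14 (36725067 to 36726798, minus) are both on chromosome 18. Csf1r overlaps Hmgxb3 on the other strand and Mir6983 on its own, and the strand setting of the counting was not given in the sources used here, so its counts could include reads of these genes. The other 7 overlap no annotated gene. Lyz2 and Ly6c2 have close paralogs, Lyz1 and Ly6c1, between which short reads may have been divided uncertainly.

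The libraries held 5579590 to 18764516 counts, and 16201 to 16674 genes had at least 1 count. The shallowest was rdKO5. The first principal component of all genes took 45.8% of the variance. Lama4 itself ranged from 41.2 to 197 CPM (counts scaled to library size) in chow-fed fl/fl and from 64.2 to 134 CPM in chow-fed AKO, and from 32.4 to 135 CPM in HFD-fed fl/fl and 36.4 to 92.4 CPM in HFD-fed AKO. The libraries labelled AKO differed from fl/fl by a log2 fold change of 0.11 on chow (adjusted p = 0.980, edgeR) and -0.69 on HFD (adjusted p = 0.347, edgeR). The study reported lower Lama4 by quantitative PCR in eWAT of chow-fed AKO mice, a fall that these counts did not show. The deleted part is exon 3 while these reads come from the 3′ end of the transcript. Whether its loss lowers the 3′ counts was not tested, so Lama4 counts neither bear out nor contradict the labels here. Summed counts of 8 adipocyte markers, from 8506 to 49718 CPM, were high in every library, as the tissue label says, and the 1 tested marker of epididymal epithelium stayed at or below 1.64 CPM.

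All 8 genes were detected at 1 CPM or more in all 24 libraries, and their levels differed far more between single mice than between groups. Over the 24 libraries Cd68 ranged 17.9-fold, from 82.8 CPM in rdWT1 to 1479 CPM in hfdKO4. Ly6c2 ranged 17.6-fold, Adgre1 14.7-fold, Fcgr1 14.0-fold, Mpeg1 11.4-fold and Lyz2 10.8-fold. Cd14 and Csf1r were steadier, with ranges of 4.37-fold and 4.08-fold. Within groups the SD of log2 CPM was 0.57 for Csf1r, 0.58 for Cd14 and between 0.91 and 1.12 for the other 6, against a median of 0.42 over all genes tested.

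**Figure D1:**
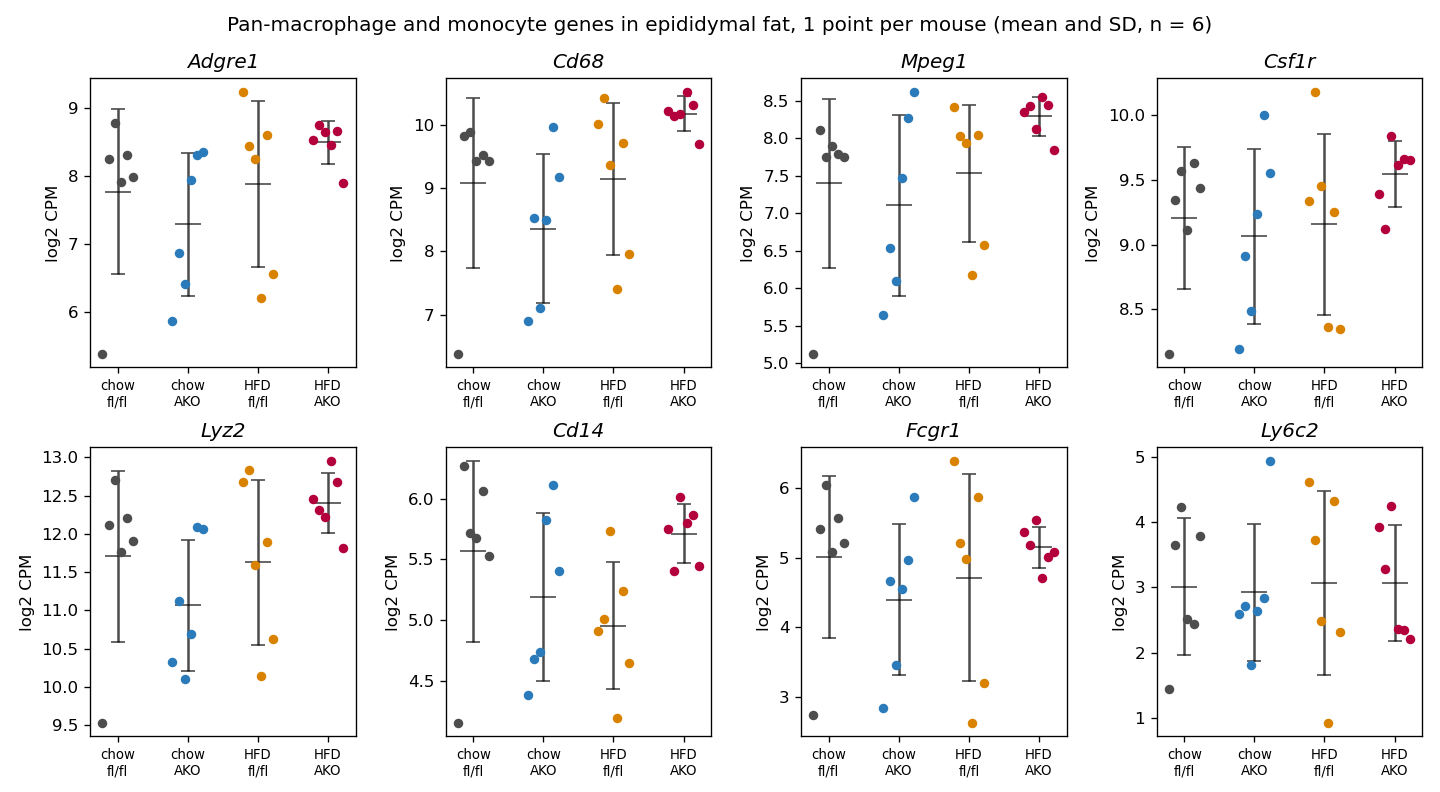
Log2 CPM of the 8 genes (y axis) in the 4 groups (x axis), with 1 point per mouse and the mean and SD of 6 mice in black. The points of HFD-fed AKO lie close together for all genes but Ly6c2, while the other 3 groups spread widely. Among chow-fed fl/fl, rdWT1 is the lowest point in every panel.

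Adgre1 was between 41.3 and 441 CPM in chow-fed fl/fl (median 280) and between 58.1 and 327 CPM in chow-fed AKO (median 180). On HFD it was between 73.5 and 606 CPM in fl/fl (median 326) and between 238 and 432 CPM in AKO (median 387). The lowest mouse of HFD-fed AKO thus stood above the lowest mice of every other group, but all 4 ranges overlapped. Cd68 ran from 82.8 to 947 CPM in chow-fed fl/fl (median 717), from 119 to 1003 CPM in chow-fed AKO (median 365), from 170 to 1380 CPM in HFD-fed fl/fl (median 749) and from 836 to 1479 CPM in HFD-fed AKO (median 1174). Of the 6 chow-fed AKO mice, only rdKO5, at 1003 CPM, reached the range of HFD-fed AKO. Mpeg1 gave 34.7 to 275 CPM in chow-fed fl/fl (median 218), 50.0 to 394 CPM in chow-fed AKO (median 135), 72.4 to 342 CPM in HFD-fed fl/fl (median 253) and 230 to 376 CPM in HFD-fed AKO (median 335). For Mpeg1 the highest mouse of all was a chow-fed AKO mouse, rdKO6.

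Lyz2 lay between 736 and 6697 CPM in chow-fed fl/fl (median 4137), 1099 and 4343 CPM in chow-fed AKO (median 1942), 1132 and 7284 CPM in HFD-fed fl/fl (median 3453), and 3613 and 7957 CPM in HFD-fed AKO (median 5361). Each of the other groups held at least 1 mouse within the range of HFD-fed AKO. Its paralog Lyz1 was counted at 10.5 to 77.7 CPM and kept no such order, with medians of 30.5 and 39.1 CPM in chow-fed and 32.4 and 36.0 CPM in HFD-fed fl/fl and AKO. Csf1r, the CSF1 receptor, lay between 285 and 790 CPM in chow-fed fl/fl (median 671), 292 and 1026 CPM in chow-fed AKO (median 542), 325 and 1161 CPM in HFD-fed fl/fl (median 628), and 556 and 917 CPM in HFD-fed AKO (median 795).

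The receptor genes Cd14 and Fcgr1 showed other orders. Cd14 measured 17.6 to 77.1 CPM in chow-fed fl/fl (median 51.7), 20.8 to 69.0 CPM in chow-fed AKO (median 34.4), 18.2 to 53.1 CPM in HFD-fed fl/fl (median 31.0) and 42.2 to 64.3 CPM in HFD-fed AKO (median 54.6). It was the only member with its lowest median in HFD-fed fl/fl. Fcgr1 measured 6.50 to 65.5 CPM in chow-fed fl/fl (median 39.6), 7.03 to 58.3 CPM in chow-fed AKO (median 24.2), 6.01 to 84.0 CPM in HFD-fed fl/fl (median 34.3) and 25.9 to 46.3 CPM in HFD-fed AKO (median 34.9). The monocyte gene Ly6c2 was low in every group: 2.58 to 18.5 CPM in chow-fed fl/fl (median 8.98), 3.35 to 30.5 CPM in chow-fed AKO (median 6.23), 1.74 to 24.2 CPM in HFD-fed fl/fl (median 9.25) and 4.47 to 18.8 CPM in HFD-fed AKO (median 7.30). Its highest value, in rdKO6, stood apart from the other 5 chow-fed AKO mice, which reached 6.998 CPM at most. Its paralog Ly6c1, an endothelial gene, was even across all mice at 147 to 236 CPM.

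By median, HFD-fed AKO was the highest group for 6 of the 8 genes (Adgre1, Cd68, Csf1r, Lyz2, Cd14 and Mpeg1) and chow-fed AKO the lowest for 7, all but Cd14. Between these, fl/fl mice on both diets changed places from gene to gene. For each of the 8 genes the ranges of every pair of groups overlapped (48 of 48 pairs). The share of overlapping pairs over all genes was not counted, so this cannot be read as particular to the 8. The tests of the differences are given with the comparisons below.

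In 3 of the 4 groups 1 mouse was the lowest for most of the genes, less so in HFD-fed AKO. In chow-fed fl/fl, rdWT1 was the lowest of 6 mice for 8 of 8 genes, and in HFD-fed fl/fl hfdWT4 was the lowest for 7 and hfdWT6 for the remaining one, Csf1r. In chow-fed AKO, rdKO1 was the lowest for 6 and rdKO3 for Lyz2 and Ly6c2. In HFD-fed AKO the lowest mouse was hfdKO6 for 5 genes, hfdKO2 for 2 and hfdKO4 for 1. The spread of HFD-fed AKO was the smallest: without Ly6c2 the highest and lowest mice differed by 1.52-fold to 2.20-fold, against 2.78-fold to 11.4-fold in chow-fed fl/fl, 3.32-fold to 8.43-fold in chow-fed AKO and 2.92-fold to 14.0-fold in HFD-fed fl/fl. Over all genes too HFD-fed AKO had the smallest median SD of log2 CPM, 0.29, compared with 0.39 in chow-fed fl/fl, 0.38 in chow-fed AKO and 0.49 in HFD-fed fl/fl. Against these medians the SD was larger for 3 of the 8 genes in HFD-fed AKO and for 8 of 8 in each of the other groups. These differences in spread are a description and were not tested.

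**Figure D2:**
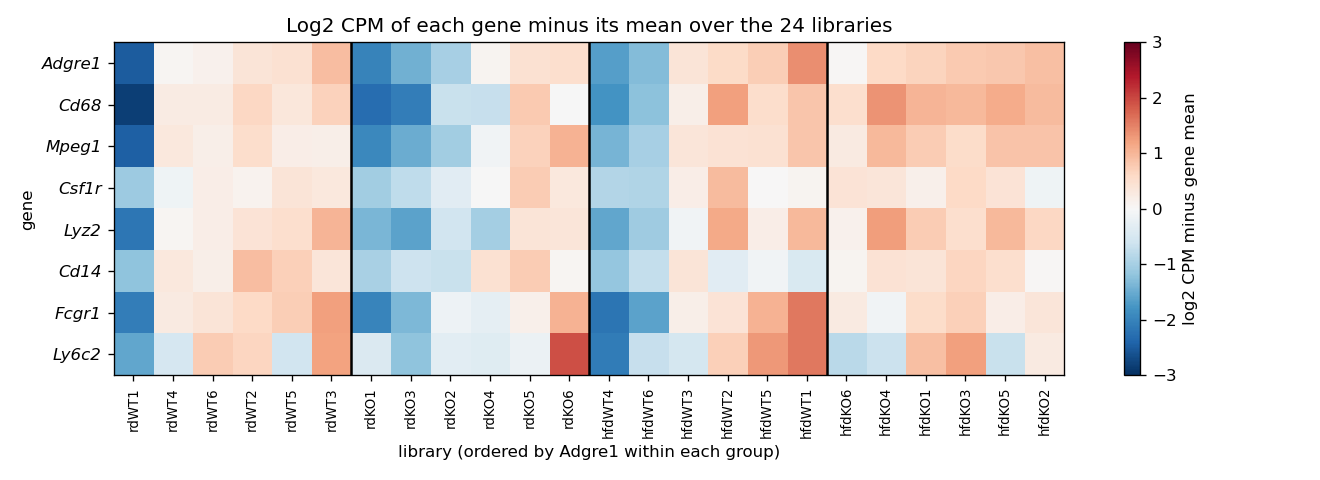
Log2 CPM of each gene (rows) minus its mean over 24 libraries, in colour, for each library (columns), ordered by Adgre1 within the 4 groups, which black lines divide in the order chow-fed fl/fl, chow-fed AKO, HFD-fed fl/fl and HFD-fed AKO. The blue columns of rdWT1, rdKO1, rdKO3, hfdWT4 and hfdWT6 run through nearly all genes, while Ly6c2 in the lowest row departs from the others, most in rdKO6.

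After the group means were removed, the log2 CPM of the genes ran in parallel over the 24 libraries. Values of 2 genes in a library come from the same tissue piece and the same depth, both of which differed between libraries. Pearson's r over the 28 pairs ranged from 0.43 to 0.96 with a median of 0.84, and Spearman's rho from 0.38 to 0.94. Adgre1 followed Mpeg1 (r = 0.96, rho = 0.91), Fcgr1 (r = 0.95, rho = 0.90), Cd68 (r = 0.94, rho = 0.88) and Lyz2 (r = 0.91, rho = 0.80) most closely. It followed Csf1r (r = 0.85, rho = 0.82), Cd14 (r = 0.82, rho = 0.71) and Ly6c2 (r = 0.74, rho = 0.74) less so. Leaving out rdWT1 and hfdWT4, the 2 libraries farthest out for Adgre1, lowered r to 0.93 for Mpeg1, 0.92 for Fcgr1, 0.90 for Cd68, 0.84 for Lyz2, 0.78 for Csf1r, 0.69 for Cd14 and 0.63 for Ly6c2. The weakest pair was Cd14 with Ly6c2 (r = 0.43, rho = 0.38). Ly6c2 came closest to Fcgr1 (r = 0.82, rho = 0.82). Libraries that were low for nearly all members also had the lowest scores on the first principal component of all genes. These were rdWT1 (-91.8), hfdWT4 (-76.0), rdKO1 (-74.8), rdKO3 (-74.6) and hfdWT6 (-60.3). That component took 45.8% of the variance. Correlations over pairs of all genes were not computed, so the parallel course cannot be read as particular to the members.

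Among the 10 other genes whose group-centred log2 CPM was most like the mean of the 8, over the 24 libraries, were Pianp (r = 0.99), P2ry6, Tbxas1, Lcp1, Evl, Glipr1, Nckap1l, Fcer1g and Tpd52, the last with r = 0.98. Several are known genes of blood cells: Lcp1 is a leukocyte actin-bundling protein, Nckap1l part of the leukocyte actin machinery, and Fcer1g the signaling chain that Fc receptors such as that of Fcgr1 share. Fcer1g itself ran from 83.5 CPM in its lowest library to 1180 CPM in its highest.

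Adipocyte markers ran the other way. In 4 of 4 groups the mouse that was lowest for most of the 8 genes had the highest sum of 8 adipocyte markers (Adipoq, Plin1, Cidec, Lep, Pparg, Lipe, Fabp4 and Cfd). Most of this sum was Fabp4, with medians of 24516 and 16310.5 CPM in chow-fed and 13691.5 and 6690 CPM in HFD-fed fl/fl and AKO. The single markers were not compared with the 8 genes mouse by mouse. The sum was 49718 CPM in rdWT1 against at most 34223 in the rest of its group, 39528 CPM in rdKO1 against at most 36471, 45071 CPM in hfdWT4 against at most 38039, and 23941 CPM in hfdKO6 against at most 11631. By group it ranged from 19135 to 49718 CPM in chow-fed fl/fl, 14870 to 39528 in chow-fed AKO, 8692 to 45071 in HFD-fed fl/fl and 8506 to 23941 in HFD-fed AKO. The part of this make-up in the results that follow was not tested.

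**Figure D3:**
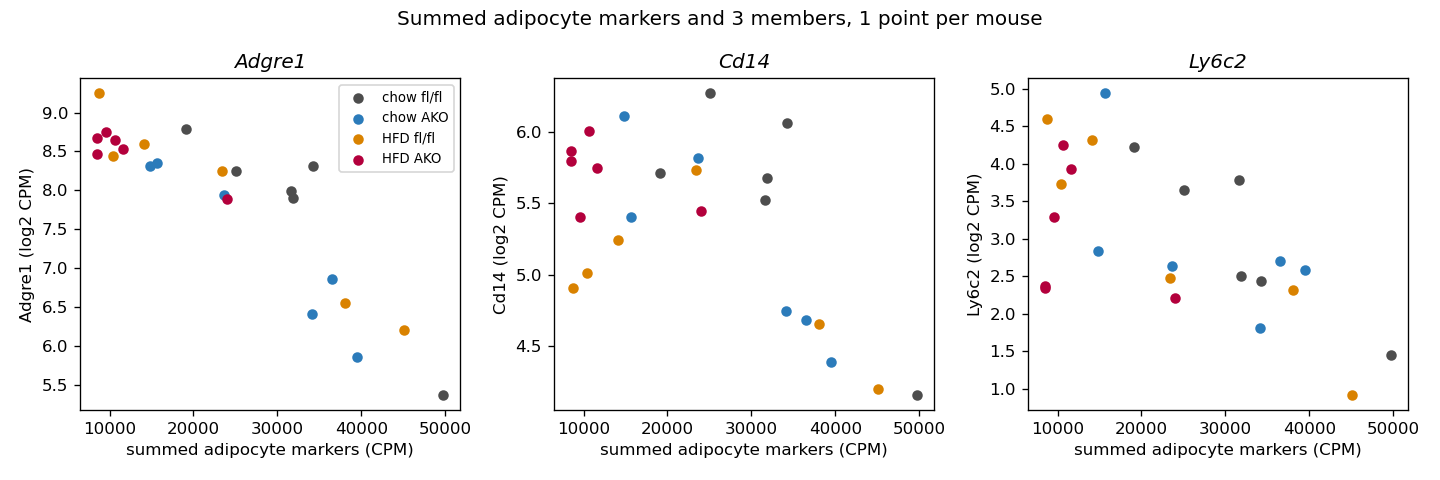
Log2 CPM of Adgre1, Cd14 and Ly6c2 (y axes) against the sum of 8 adipocyte markers in CPM (x axis), with 1 point per mouse coloured by group. The mouse with the largest sum, rdWT1 at 49718 CPM, has the lowest Adgre1. HFD-fed AKO mice lie to the left, with sums of 8506 to 23941 CPM. Mice of other groups lie there too, such as hfdWT1 (8692), hfdWT2 (10457), hfdWT5 (14050) and rdKO5 (14870).

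Markers of other cells also moved with the groups. The sum of 6 mast cell markers ranged from 59.2 to 518 CPM in chow-fed fl/fl, 36.7 to 425 in chow-fed AKO, 54.3 to 2288 in HFD-fed fl/fl and 599 to 1959 in HFD-fed AKO, with hfdWT4 (60.9) and hfdWT6 (54.3) as the low mice of HFD-fed fl/fl. The sum of 5 tested neutrophil markers of 9 was 20.1 to 304 CPM in chow-fed fl/fl and 54.3 to 285 in chow-fed AKO, against 51.6 to 92.7 in HFD-fed fl/fl and 41.1 to 104 in HFD-fed AKO. Most of this sum was S100a8, with medians of 197 and 105 CPM in chow-fed and 50.8 and 55.8 CPM in HFD-fed fl/fl and AKO. By median, S100a9, Retnlg and Camp were also lower on HFD in both genotypes, and Csf3r was higher. The 6 stromal progenitor markers summed to 1560 to 4802 CPM. The medians of that sum were 2701 and 2380 CPM in chow-fed and 2710 and 3961 CPM in HFD-fed fl/fl and AKO. The 8 dendritic cell markers summed to 154 to 396 CPM, most of it Clec10a alone at 116 to 353 CPM. For the 6 endothelial markers the sum was 354 to 875 CPM, and for the 5 red blood cell markers 1252 to 5703 CPM. Lymphocyte markers were low, at 5.06 to 130 CPM for 8 T cell genes and 3.71 to 85.0 CPM for 6 B cell genes, as were 5 mesothelial markers (4.198 to 150 CPM). Their part in the results was not tested either.

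In Lama4 fl/fl mice none of the 8 genes was called between HFD and chow by the study's criteria (at least 1.5-fold, nominal p of at most 0.001 and a higher group mean of at least 2 CPM), under which 0.173% of all genes tested were called. By edgeR, 5 genes were higher and 3 lower on HFD, with a median log2 fold change of 0.06 against -0.01 for all genes. At an unadjusted p under 0.05 there was 1 member, Cd14, against 9.06% of all genes. Cd14 was 0.67 lower on the log2 scale on HFD (log2 fold change -0.67, SE 0.31, adjusted p = 0.535, edgeR), and the exact permutation test over mice gave p = 0.139, with n = 6 in each group. The other 7 lay between -0.04 (Fcgr1) and 0.25 (Ly6c2), and their 95% confidence intervals were wide. For Cd68 the log2 fold change was 0.09 with an interval from -0.97 to 1.16, so that changes of up to about 2-fold in either direction were not excluded. Leaving out single mice turned the sign of 7 of the 8 values, all but Cd14.

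**Figure D4:**
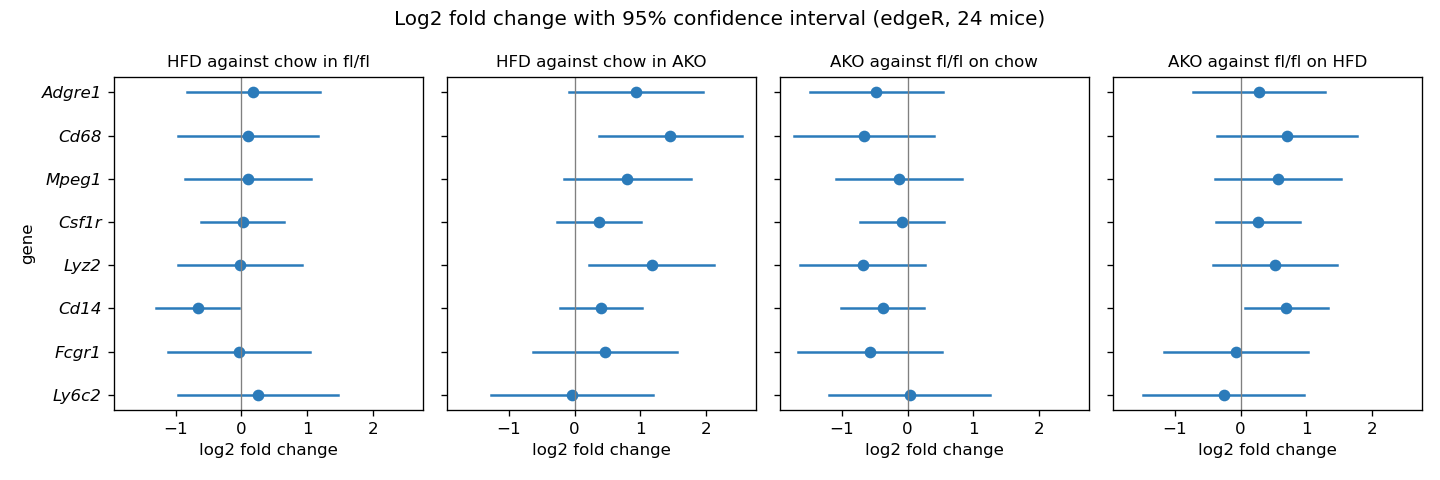
Log2 fold change (x axis) of each gene (y axis) in 4 comparisons, with points for the edgeR estimate over 24 mice and lines for its 95% confidence interval. Only Cd68 and Lyz2 for HFD against chow in AKO, and Cd14 for HFD against chow in fl/fl and for AKO against fl/fl on HFD, have intervals that leave out 0.

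In Lama4 AKO mice HFD went with higher values of 7 of the 8 genes, none of them called by the study's criteria, against 4.13% of all genes called. The median log2 fold change was 0.64 against 0.00 for all genes. Cd68 (1.46, SE 0.53, adjusted p = 0.0491, edgeR) and Lyz2 (1.18, SE 0.46, adjusted p = 0.0663, edgeR) passed an unadjusted p under 0.05, as did 39.7% of all genes, a larger share than 2 of 8. If the nominal p was replaced by an adjusted p with a limit of 0.05, Cd68 alone was called, against 16.1% of all genes. Its adjusted p ranged from 0.0150 to 0.112 as single mice were left out, and was at most 0.05 in 8 of 24 such fits. The remaining log2 fold changes were 0.94 for Adgre1 (adjusted p = 0.156, edgeR), 0.80 for Mpeg1, 0.47 for Fcgr1, 0.40 for Cd14, 0.37 for Csf1r and -0.03 for Ly6c2. In the exact permutation test over 6 against 6 mice, whose smallest possible p is 0.00216, Cd68 gave p = 0.00433, Lyz2 p = 0.0108, Adgre1 p = 0.0195 and Mpeg1 p = 0.0498. For the other members the exact permutation p was between 0.130 (Cd14) and 0.807 (Ly6c2), and ranges of the groups overlapped for all 8.

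No difference between the chow-fed genotypes passed the test for any of the 8 genes: 0 were called by edgeR, limma-voom or DESeq2 and 0 had an unadjusted p under 0.05, against 0.113% and 5.88% of all genes by edgeR. In AKO 7 members were lower, from -0.09 (Csf1r) to -0.69 (Lyz2, SE 0.46, adjusted p = 0.925, edgeR) on the log2 scale, and Ly6c2 stood at 0.03. The median was -0.43, against 0.00 for all genes. The exact permutation p of the 8 genes was between 0.284 (Lyz2) and 0.903 (Ly6c2). The 95% interval for Cd68 ran from -1.73 to 0.41 and that for Csf1r from -0.72 to 0.55.

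On HFD, 6 of the 8 genes were higher in AKO than in fl/fl, with a median of 0.40 on the log2 scale against -0.03 for all genes. None was called, against 0.173% of all genes, and 1, Cd14, had an unadjusted p under 0.05, against 14.8% of all genes. Cd14, the lipopolysaccharide co-receptor, was 0.70 higher (SE 0.31, adjusted p = 0.310, edgeR). The 6 HFD-fed AKO mice, from 42.2 to 64.3 CPM, overlapped the 6 fl/fl mice, from 18.2 to 53.1 CPM, and the exact permutation test gave p = 0.00866. Cd68 was 0.71 higher (SE 0.52, adjusted p = 0.497, edgeR). Its difference in mean log2 CPM was 1.03, with an exact permutation p = 0.0498. For the other 6 the exact permutation p lay between 0.0606 (Mpeg1) and 0.996 (Ly6c2). In all, 32 such exact tests were run over the 4 comparisons, and these p-values are not adjusted.

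The response to diet was compared between genotypes by the interaction term. It was positive for 7 of the 8 genes, and none was called, against 0.386% of all genes. Only Cd14 had an unadjusted p under 0.05, against 15.5% of all genes, with HFD going 1.07 further up on the log2 scale in AKO than in fl/fl (SE 0.43, adjusted p = 0.273, edgeR). Cd68 (1.37, SE 0.73) and Lyz2 (1.20, SE 0.65) had larger and less certain terms, with adjusted p = 0.356 and 0.357 (edgeR). So Cd68 and Lyz2, whose intervals left out 0 in AKO and not in fl/fl, were not shown to differ in response between genotypes. Averaged over genotypes, HFD gave 7 positive and 1 negative value and no call, against 2.24% of all genes, and 1 member, Cd68 (0.78, SE 0.37, adjusted p = 0.132, edgeR), had an unadjusted p under 0.05, against 35.5%.

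The study left out mice as outliers of a principal component analysis, without their names in the sources used here. Leaving out hfdWT3, hfdWT4, hfdWT6, rdWT3 and rdKO5 leaves 14855 genes to test, and that these 5 were the mice is an inference from the number of genes. For 6 of the 8 genes the 3 of these from HFD-fed fl/fl were the 3 lowest mice of their group, so that leaving them out raises that group. The chow-fed mice among the 5 were high ones: rdWT3 was the highest of its group for 5 of the 8 genes and rdKO5 for 4, with Cd68 at 1003 CPM, so that leaving them out lowers those groups. Without rdKO5 alone, the log2 fold change of Cd68 for HFD against chow in AKO was 1.91. With the 19 other mice, Cd68 was called in AKO for HFD against chow (1.91, SE 0.46, adjusted p = 0.00347, edgeR), against 15.7% of all genes, and averaged over genotypes (1.36, SE 0.34, adjusted p = 0.00292, edgeR), against 21.5%. As each of the 19 was left out in turn, Cd68 stayed called in 13 of 19 fits in AKO and 4 of 19 for the average. No other member was called in the 19 mice. In AKO, Lyz2 (1.41, adjusted p = 0.0106, edgeR) and Adgre1 (1.14, adjusted p = 0.0444, edgeR) also had an adjusted p under 0.05. So did Lyz2 (1.09, adjusted p = 0.00627, edgeR), Adgre1 (1.04, adjusted p = 0.0138, edgeR) and Csf1r (0.52, adjusted p = 0.0396, edgeR) for the average. HFD against chow in fl/fl then gave Adgre1 0.95, Cd68 0.80, Lyz2 0.77, Fcgr1 0.84, Ly6c2 1.27, Mpeg1 0.55, Csf1r 0.44 and Cd14 -0.64. None was called there, against 1753 of all 14855 genes. AKO against fl/fl on HFD turned below 0 for Adgre1 (-0.28), Csf1r (-0.09) and Lyz2 (-0.07) in these mice. Fcgr1 (-0.74) and Ly6c2 (-0.97), already below 0 with all mice, moved further down. Only Cd68 (0.12), Mpeg1 (0.13) and Cd14 (0.67) stayed above 0, and none of the 8 was called.

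Further genes of the lineage were taken by list, and no test compared the lists with each other. Of 20 further pan-macrophage genes, such as Aif1, Itgam, Tyrobp and the C1q chains, none was called by edgeR in any of the 6 comparisons. For HFD against chow in AKO 19 of the 20 were higher, with a median log2 fold change of 0.86 against 0.00 for all genes, and 9 of the 20 had an unadjusted p under 0.05, beside 39.7% of all genes. The lowest p belonged to Mertk, a receptor for the uptake of dead cells (0.65, SE 0.20, adjusted p = 0.0284, edgeR). In fl/fl 10 of 20 were higher on HFD. The chow-fed AKO mice were higher for 1 of 20, and the interaction was positive for 20 of 20, of which 2 had an unadjusted p under 0.05, beside 15.5% of all genes.

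The 14 other monocyte genes gave no common direction. For HFD against chow 10 of 14 were higher in fl/fl and 8 of 14 in AKO. Ccr2, the chemokine receptor with which monocytes enter tissue, was lower on HFD in AKO, at 44.0 to 70.6 CPM against 64.2 to 159 CPM on chow (log2 fold change -1.05, SE 0.29, adjusted p = 0.0224, edgeR), but above the nominal p of the criteria. The only called gene among all lineage lists was Ace, which encodes angiotensin-converting enzyme, is a marker of non-classical monocytes and is made by endothelium too. Averaged over genotypes, where 2.24% of all genes were called, it rose by 0.62 on the log2 scale on HFD (SE 0.14, adjusted p = 0.0187, edgeR), and the call was lost without hfdWT1 (0.54) or hfdWT5 (0.55).

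Growth factors and chemoattractants of the lineage were not called in any comparison (7 of 9 tested by edgeR). In AKO on HFD 1 of 7 was higher than on chow, and Il34, the second ligand of the CSF1 receptor, stood at 21.7 to 43.4 CPM on chow and 6.57 to 27.4 CPM on HFD (log2 fold change -1.13, SE 0.36, adjusted p = 0.0330, edgeR), short of the nominal criterion. Csf1 itself had the lowest p of the list for AKO against fl/fl on chow (0.40, SE 0.17, adjusted p = 0.821, edgeR). Among the 7 partners of Cd14 and Fcgr1, none called, Tlr4, the receptor that Cd14 serves, was 0.72 higher on HFD in AKO (SE 0.26, adjusted p = 0.0485, edgeR), and 5 of 7 were higher there. Of 9 transcription factors of the lineage none was called. Cebpa, which adipocytes also use, was 0.69 lower on HFD in AKO (log2 fold change -0.69, SE 0.19, adjusted p = 0.0224, edgeR), and Cebpb 0.84 higher on HFD in fl/fl (SE 0.23, adjusted p = 0.441, edgeR). Spi1, the gene of PU.1, ran from 35.3 to 268 CPM in chow-fed and 65.6 to 738 CPM in HFD-fed fl/fl, and from 54.3 to 308 CPM in chow-fed and 185 to 455 CPM in HFD-fed AKO.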

How the data were processed

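RNA of epididymal fat from 24 mice was read with QuantSeq, which sequences the 3′ end of each transcript, so counts follow transcript number and not isoform. Counts as deposited, per gene on GRCm38, were made by the authors with the Lexogen QuantSeq pipeline. The strand setting was not given in the sources used here. The authors also deposited a normalized signal table, the same counts divided by size factors (DESeq2 1.30 and R 4.0.3 per the labels), which was used only for gene symbols and positions.

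The counts were fitted with edgeR 4.0.16 (quasi-likelihood, TMM) over 4 groups of 6 mice for 6 comparisons. A gene was tested if 3 or more libraries held it at 1 CPM or higher (15024 of 16730). P-values were adjusted by Benjamini-Hochberg over all of them, and calls used the criteria of the study: at least 1.5-fold, nominal p of at most 0.001 and a higher group mean of at least 2 CPM (the study's text also gives this level on the log scale). Where an adjusted p stands beside a gene, edgeR is the tool. Log2 CPM used a prior count of 2. The exact permutation tests were two-sided, on mean log2 CPM over mice, whose difference can depart from the edgeR log2 fold change. Alternatives were limma-voom (limma 3.58.1), DESeq2 1.42.0, RLE size factors, no filter, fits of only the groups compared, a replicate block, an adjusted p, 19 mice, and leaving out each mouse. The scripts were tested on simulated data. No 2 libraries of a group were duplicates (60 pairs, lowest chi-square per degree of freedom 5.73).

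Members and gene lists were chosen with earlier results of these data known. From each lineage list the text names called genes or the gene of lowest p, and in addition Spi1 for its role. Counting error is small for all members but Ly6c2 (22 to 453 counts per library) and Fcgr1 (63 to 1394). An item that the naming rule selects is not reported here.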

Additional observations from a re-analysis of the deposited data

Results flagged for a closer look

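In 9 of 32 combinations of gene and group, 1 mouse lay far from the other 5 of its group, judged by its gap to the nearest mouse as a share of the group's range. Chance alone gives about 1 in 20 such cases, and the genes are not independent of each other. In 7 of the 9 the mouse was rdWT1, the lowest of chow-fed Lama4 fl/fl. The gap of rdWT1 was 0.743 of the range for Adgre1, 0.872 for Cd68, 0.649 for Csf1r, 0.702 for Lyz2, 0.648 for Cd14, 0.880 for Mpeg1 and 0.709 for Fcgr1. Its adipocyte marker sum of 49718 CPM was the highest of all libraries, and its total of 10195574 counts was within the range of the others. Adgre1 was low in hfdKO6, with a gap of 0.659, the mouse with the highest adipocyte marker sum of HFD-fed AKO (23941 CPM). Ly6c2 was high in rdKO6, with a gap of 0.671, at 30.5 CPM. That mouse also had the highest sum of 8 T cell markers of all libraries (130 CPM), and its part in the value was not tested.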

How the results depend on the processing

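No member was called in any comparison by limma-voom, DESeq2, RLE size factors, without the filter, in fits of only the groups compared, with the replicate block, or in any of the 24 fits that left out 1 mouse (0 of 8 throughout). The count rose to 1, Cd68, in HFD against chow in AKO with the adjusted p, with the 19 mice and with limma-voom on the 19 mice, and averaged over genotypes with the latter pair. The replicate numbers shared no more than the number: correlations of same-numbered deviations ran from -0.53 to 0.72, and 5 of 24 libraries correlated best with their own number. With the replicate block Cd68 stood at 1.64 in AKO (adjusted p = 0.0520, edgeR), and 459 in place of 621 genes of the whole table were called there. DESeq2 called 1314 of the whole table there, the 19 mice 2331.

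Of 48 values of member and comparison, 20 changed sign under some alternative, none of them over 0.52 on the log2 scale at first. HFD against chow in fl/fl turned for Lyz2 to 0.77 with the 19 mice, 1.002 with limma-voom on these, 0.0038 with DESeq2 and with RLE size factors, 0.0077 without the filter and 0.026 with only the groups compared, for Fcgr1 to 0.84, 0.99 and 0.010 with the first, second and last of these, and for Csf1r to -0.044 with limma-voom. HFD against chow in AKO turned for Ly6c2 to 0.18 with limma-voom, 0.17 with limma-voom on the 19 mice and 0.020 with the replicate block. AKO against fl/fl on HFD turned with the 19 mice to -0.28 for Adgre1, -0.090 for Csf1r and -0.071 for Lyz2 (limma-voom -0.27, -0.043 and -0.059), and for Fcgr1 to 0.42 with limma-voom on all mice. On chow Ly6c2 turned to -0.12 with limma-voom and -0.016 with the replicate block. The interaction turned to -0.31 for Fcgr1 (limma-voom -0.091) with the 19 mice and to 0.084 for Ly6c2 with limma-voom. The average for Cd14 turned to 0.10 with limma-voom on the 19 mice. Of list genes, Ccl12 turned to 0.10 with the 19 mice, and Lbp to -0.00074 and Il34 to 0.19 with limma-voom on these. The causes were not tested.

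Leaving out single mice, HFD against chow in fl/fl ranged from -0.14 to 0.38 for Adgre1, -0.20 to 0.30 for Cd68, -0.25 to 0.15 for Csf1r, -0.30 to 0.18 for Lyz2, -0.13 to 0.27 for Mpeg1, -0.45 to 0.18 for Fcgr1 and -0.10 to 0.55 for Ly6c2. For Ly6c2 it ranged from -0.34 to 0.75 in AKO, -0.068 to 0.52 for the average, -0.59 to 0.10 for the genotypes on HFD, -0.76 to 0.33 for those on chow and -0.61 to 0.48 for the interaction. AKO against fl/fl ranged on HFD from -0.29 to 0.34 for Fcgr1, and on chow from -0.32 to 0.051 for Csf1r and -0.52 to 0.058 for Mpeg1. For Ly6c2 the values -0.76, 0.75, 0.52 and 0.48 came from leaving out rdKO6. Fits that left out each of the 19 mice were added after the data were seen. Depth limits Ly6c2 most, at 22 counts in its lowest library.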
